A study of Mus musculus with 12 samples.

Results

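The interferon-inducible GTPases described here are 10 genes of the mouse: the guanylate-binding proteins (GBPs) Gbp2, Gbp3, Gbp5, Gbp7 and Gbp9, and the immunity-related GTPases (IRGs) Iigp1, Ifi47, Irgm1, Irgm2 and Igtp. They were taken by gene symbol from a table of 32544 genes, and all 10 were among the 14285 genes with enough counts to be tested. RNA-seq had been performed on 4 groups of 3 libraries. Bone marrow-derived macrophages (BMDMs) were sequenced 24 h after seeding, and NIH/3T3 cells, a mouse fibroblast line, after 72 h in medium conditioned by such BMDMs. The label WT stands for LysMCre mice and PHD2cko for mice in which LysMCre deletes PHD2, so both BMDM groups carried the Cre transgene. The Lyz2 (LysM) promoter drives Cre in myeloid cells, and all BMDMs were grown with L929-conditioned medium as their source of growth factor. At which oxygen level the sequenced cells were kept is not given in the sources used here, nor whether the 3 libraries of a group came from separate mice or cultures, so the p-values measure the spread between these libraries, which may be technical.

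GBPs and IRGs are large GTPases of cell-autonomous immunity. Interferon gamma, and to a lesser degree type I interferons, switch on their genes through JAK kinases and interferon regulatory factors, and the proteins then gather on the vacuoles and membranes of intracellular pathogens. IRGs come as effectors, which load onto vacuoles and disrupt them, and as regulators of the Irgm type, which hold the effectors inactive on the cell's own membranes. GBPs act beside them, help inflammasome caspases reach bacterial products, and depend on parts of the autophagy machinery to reach their targets.

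The genes lie in few places of the genome. Gbp5 (ENSMUSG00000105504.4, 142493978 to 142522344), Gbp7 (ENSMUSG00000040253.15, 142530342 to 142550149), Gbp3 (ENSMUSG00000028268.14, 142560026 to 142573209) and Gbp2 (ENSMUSG00000028270.12, 142620602 to 142638008) follow each other on the plus strand of chromosome 3 in GRCm38. Gbp9 (ENSMUSG00000029298.15) is on the minus strand of chromosome 5, from 105077630 to 105139539. On chromosome 11 lie Irgm1 (ENSMUSG00000046879.7, 48861968 to 48871683, minus strand), Ifi47 (ENSMUSG00000078920.3, 49076587 to 49096974, plus strand), Igtp (ENSMUSG00000078853.8, 58199556 to 58207591, plus strand) and Irgm2 (ENSMUSG00000069874.7, 58199618 to 58222782, plus strand). Iigp1 (ENSMUSG00000054072.12) lies apart from these clusters. The annotated spans of Igtp and Irgm2 overlap on the same strand, and 15.9% of the 31-base words in Igtp transcripts also occur in those of Irgm2, so reads can be shared between these genes. For the other members between 2.88% (Irgm1) and 18.3% (Gbp9) of such words occur in another gene. The annotated span of Gbp9 likewise overlaps those of the GBP genes Gbp4 and Gbp8 on the same strand. Of its words, 9.11% occur in Gbp8, so reads can be shared there too.

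The promoters of the members held interferon motifs. Windows of 300 bases (250 before and 50 after the annotated start, from RefSeq on GRCm38.p6) were searched for 8 members, all but Gbp9 and Iigp1. For members and family genes, windows on the chromosome of Iigp1 were left out, but the shares of all windows include them. The search covered both strands. The interferon-stimulated response element (ISRE), bound by interferon regulatory factors, was written as GAAA, any 2 bases and GAAA, and the gamma-activated site (GAS), a motif of interferon gamma responses, as TTCNNNGAA. An ISRE was found in 7 of the 8 members and in 3.44% of the 32851 windows in the table, and a GAS in 4 of the 8 members (Gbp5, Gbp7, Irgm2 and Igtp) and in 8.3% of all windows. Of 10 other GBP and IRG genes searched in this way, 5 had an ISRE and 4 a GAS. Counted by gene over all windows of a gene, 3.99% of the 27025 genes in the table had an ISRE and 9.55% a GAS. Gbp3 had a second window, from a start further downstream, which held neither, so 7 of the 9 windows of these members held an ISRE. The stretches that hold the ISRE nearest the start are shown 5′ to 3′ on the strand of the gene, because they are what most members share, with the motif letters in capitals.
Gbp2: ttagTTTCACTTTCactg
Gbp3: acagTTTCAGTTTCTATTTCccag
Gbp5: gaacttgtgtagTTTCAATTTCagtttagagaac
Gbp7: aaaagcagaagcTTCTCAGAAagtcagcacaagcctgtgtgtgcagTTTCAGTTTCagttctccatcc
Irgm1: tcaaGAAATAGAAACCGAAActga
Irgm2: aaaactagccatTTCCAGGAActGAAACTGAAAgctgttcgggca
Igtp: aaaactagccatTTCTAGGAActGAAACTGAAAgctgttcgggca

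In Gbp2, Gbp3, Gbp5 and Gbp7 the ISRE stood in its reverse form (TTTC, 2 bases, TTTC). In Gbp3 and Irgm1 a pair of ISRE matches overlapped. Irgm2 and Igtp had the same arrangement, a GAS followed after 2 bases by an ISRE in which the motifs did not overlap. Their 45-base stretches were identical at 44 positions and differed by C16T, with Irgm2 first and positions counted from 1 at the 5′ end. This composite was present in 5 of the 32851 windows (0.0152%), those of Irgm2, Igtp and the IRG genes Tgtp1, Tgtp2 and Gm12185. In Gbp7 a GAS lay 106 and another 87 bases before the start, counted from the first base, of which the latter is shown, and the ISRE lay 53 bases before it. In the Ifi47 window neither set of letters was present. A match describes the letters only. The stretches lie on GRCm38 at chr3:142620600-142620617 (Gbp2), chr3:142559995-142560018 (Gbp3), chr3:142496757-142496790 (Gbp5), chr3:142530237-142530304 (Gbp7), chr11:48871431-48871454 (Irgm1), chr11:58214890-58214934 (Irgm2) and chr11:58199499-58199543 (Igtp). In GENCODE M21 those of Gbp3, Gbp7 and Igtp are outside the gene, those of Gbp5 and Irgm2 are in introns of longer transcripts, and those of Irgm1 (all 24 bases) and Gbp2 (16 of 18 bases) are in the exons of transcripts that start further upstream.

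Some properties of the libraries touch these results. Totals were between 15516465 and 25199770 estimated counts. Egln1, the gene for PHD2, was not lower in the BMDM libraries labelled PHD2cko but 1.26-fold higher (log2 fold change 0.33, standard error, SE, 0.0527, adjusted p = 0.00203, edgeR), and sums over a gene cannot show whether an exon is missing, so directions below follow the labels. PHD2 marks the hypoxia-inducible factors (HIFs) for degradation. Among 8 known HIF targets, 6 were called higher in the same libraries, beside 3.38% of all genes. These targets were chosen after the data were seen, so they cannot test the label. Egln3 (log2 fold change 1.96, adjusted p = 1.80e-07, edgeR), Pdk1 (0.96, 4.83e-08) and Bnip3 (0.85, 1.52e-05) were among the 6. Vegfa (-0.03, 0.873) and Car9 (0.12, 0.862) were not called. All 14 macrophage markers were detected in every BMDM group, with a summed level of 31252 to 36957 CPM (counts per 1e+06 counts, for markers over the library total and for single genes after TMM scaling), where 12 fibroblast markers together reached 1.92 to 6.63 CPM in WT and 6.45 to 7.27 CPM in the BMDMs labelled PHD2cko. Sparc (2, 10 and 2 counts in WT against 17, 12 and 22, log2 fold change 1.79, adjusted p = 0.0140, edgeR) and Col6a1 (3, 12 and 1 against 18, 20 and 31, log2 fold change 2.03, adjusted p = 0.0107) were called higher among them. The 7 markers of B or plasma cells summed to 194 to 201 CPM in WT and 156 to 171 CPM in the BMDMs labelled PHD2cko. Among them Ighm was lower (log2 fold change -0.28, adjusted p = 0.0434, edgeR), and Igkc had 0 counts in each WT library and 12, 18 and 17 in those labelled PHD2cko (adjusted p = 0.00572, edgeR). The part of such other cells in the GTPase result was not tested. In the fibroblasts the fibroblast markers summed to 24219 to 31553 CPM. Macrophage markers there summed to 20.2 to 20.6 CPM in WT medium and to 174 to 768 CPM in medium labelled PHD2cko, and all 14 passed the test as higher. From these markers, the share of macrophage RNA was estimated at 0.0556% to 0.0567% in WT medium and at 2.42%, 0.549% and 2.17% in replicates 1, 2 and 3 of medium labelled PHD2cko. Among replicates, WT-medium replicate 1 stood furthest apart, with a chi-square of 24.8 and 26.9 per degree of freedom against the other replicates, which differed from each other by 2.35.

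In the BMDMs labelled PHD2cko, the GTPase genes were lower. Of the 10 members, 6 fell (Gbp2, Gbp3, Gbp5, Gbp7, Iigp1 and Ifi47) at an adjusted p under 0.05 (edgeR's quasi-likelihood test, Benjamini-Hochberg adjustment over all genes), and the remaining 4 had log2 fold changes between -0.44 and -0.07. Among all genes tested, 3.35% were lower and 3.38% higher past this threshold. For 9 of the 10 members, all but Gbp9, the 3 libraries labelled PHD2cko lay below the 3 WT libraries, which held for 15.6% of all genes in this direction. The median log2 fold change of the members was -0.76, where that of all genes was 0.00. In bulk RNA, fewer cells that express a gene and less RNA per cell cannot be told apart.

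**Figure D1:**
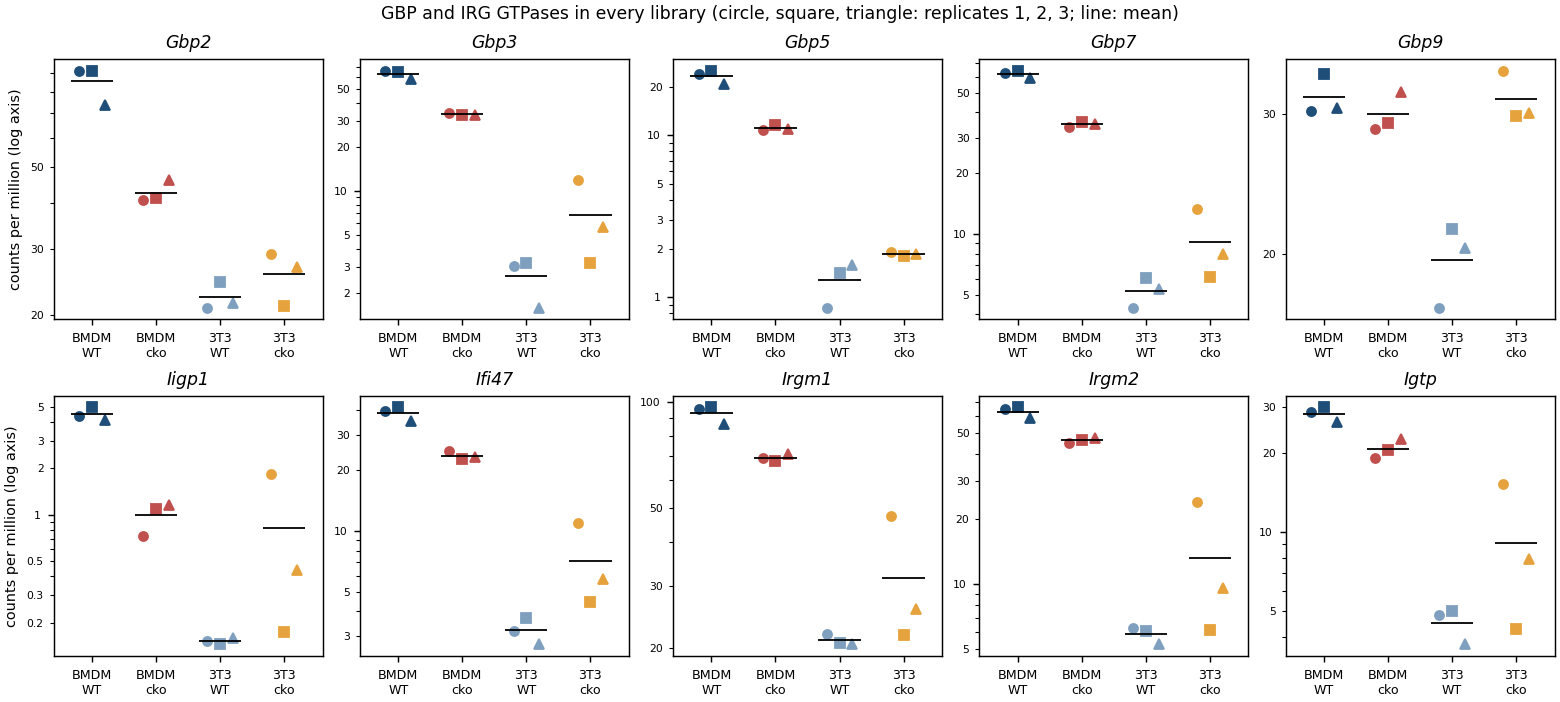
Level of each of the 10 GTPase genes in each of the 12 libraries, in TMM-scaled CPM on a log axis whose range differs between panels. Points are libraries (circle, square and triangle for replicates 1, 2 and 3) and lines are group means (n = 3). The BMDM groups are apart for every gene except Gbp9, and in the fibroblasts the circle in medium labelled PHD2cko is the highest point of its group in all 10 panels.

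Among the GBPs, Gbp2, which coats vacuoles of parasites and bacteria, was at 90.9, 91.0 and 73.8 CPM in WT BMDMs and at 40.7, 41.3 and 46.1 CPM in those labelled PHD2cko. The groups did not overlap, and Gbp2 was 1.99-fold lower (log2 fold change -0.99, SE 0.110, adjusted p = 1.22e-04, edgeR). Gbp5, a GBP known for promoting inflammasome assembly, was at 24.1, 25.1 and 20.8 CPM in WT and at 10.8, 11.5 and 11.0 CPM in the libraries labelled PHD2cko. It was 2.10-fold lower (log2 fold change -1.07, SE 0.109, adjusted p = 6.01e-05, edgeR), with every library labelled PHD2cko under every WT library.

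Gbp3, another member of the chromosome 3 cluster, was at 66.1, 64.7 and 57.7 CPM in WT and at 33.9, 33.2 and 33.1 CPM in BMDMs labelled PHD2cko. These groups were apart as well, and the log2 fold change was -0.91 (SE 0.227, adjusted p = 0.0299, edgeR). With DESeq2 the adjusted p of Gbp3 was 0.192. Gbp7, a GBP linked to oxidative defence of macrophages, was at 62.5, 64.2 and 59.2 CPM in WT and at 33.9, 35.9 and 35.1 CPM in the libraries labelled PHD2cko (log2 fold change -0.83, SE 0.155, adjusted p = 0.00612, edgeR). The 4 genes of the chromosome 3 cluster among the members thus all fell, by 1.77-fold (Gbp7) to 2.10-fold (Gbp5).

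Gbp9, from the chromosome 5 cluster, did not follow them. It was at 30.3, 33.7 and 30.5 CPM in WT BMDMs and at 28.7, 29.2 and 32.0 CPM in those labelled PHD2cko. The groups overlapped, with a log2 fold change of -0.07 (SE 0.0869, adjusted p = 0.767, edgeR). The chromosome 5 cluster as a whole did not share this. Its genes Gbp4 (log2 fold change -1.39, adjusted p = 0.00252, edgeR) and Gbp8 (-0.82, 0.0249) fell, and Gbp6, Gbp10 and Gbp11 were not called.

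Iigp1 (Irga6), an effector IRG that loads onto the vacuole of Toxoplasma, had the largest fold change of the 10 and the lowest level. Its estimated counts were 67, 82 and 68 in WT and 12, 16 and 22 in the BMDM libraries labelled PHD2cko, or 4.35, 4.96 and 4.14 CPM against 0.728, 1.09 and 1.15 CPM. Iigp1 was 4.49-fold lower (log2 fold change -2.17, SE 0.472, adjusted p = 0.0148, edgeR), and no library labelled PHD2cko came near the WT range. Ifi47 (Irgd), also of the effector type, was at 39.5, 41.0 and 35.0 CPM in WT and at 25.1, 22.7 and 23.4 CPM in the libraries labelled PHD2cko. It was 1.63-fold lower (log2 fold change -0.70, SE 0.185, adjusted p = 0.0414, edgeR), again without overlap.

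The regulators of the Irgm type had smaller differences that did not pass the threshold, although their groups did not overlap. Irgm1, which is required for macrophages to control mycobacteria, was at 95.4, 96.3 and 86.2 CPM in WT and at 69.1, 67.9 and 71.0 CPM in BMDMs labelled PHD2cko (log2 fold change -0.42, SE 0.186, adjusted p = 0.243, edgeR). Irgm2 was at 64.7, 65.7 and 58.6 CPM against 45.1, 46.7 and 47.5 CPM (log2 fold change -0.44, SE 0.266, adjusted p = 0.427, edgeR). Igtp (Irgm3) was at 28.6, 29.8 and 26.3 CPM against 19.1, 20.6 and 22.6 CPM (log2 fold change -0.44, SE 0.256, adjusted p = 0.402, edgeR).

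The test rested on the spread of all 12 libraries, and the fibroblast libraries varied more than the BMDMs for several members. Fitted on the 6 BMDM libraries alone, 9 members were lower past the threshold, Irgm1 (adjusted p = 8.72e-06), Irgm2 (1.39e-05) and Igtp (3.15e-04) included, with edgeR, while 2534 genes in all passed in place of 961. Leaving out any of the 6 BMDM libraries left 3 or 4 members called. Gbp2, Gbp5 and Gbp7 were called whichever library was missing, and Iigp1 also without WT replicate 3.

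Within the BMDMs, 9 members moved together across the 6 libraries. The Pearson correlation of a member with the mean z-score of the 10 was between 0.975 and 0.996 for these and 0.622 for Gbp9, over 6 libraries whose groups differ in level, so the value mostly gives the step between the labels. The 5 tested genes outside the list whose pattern was most like this mean were Ifit3b, Ifi203, Adam19, Ddx52 and Oas2, with r from 0.998 to 0.999 over the 6 libraries. Of these, Ifit3b (log2 fold change -1.42, adjusted p = 0.0374, edgeR) and Ifi203 (-0.66, adjusted p = 0.00938) also fell past the threshold.

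In the fibroblasts, the direction was opposite. In medium labelled PHD2cko, 6 of the 10 members rose (Gbp3, Gbp7, Gbp9, Iigp1, Ifi47 and Irgm2), and the other 4 had log2 fold changes of 0.21 to 1.01. With limma-voom the calls were Gbp9 and Ifi47, and in the 6 fibroblast libraries fitted alone with edgeR Gbp9. Of all genes tested, 8.93% were higher and 6.75% lower past the threshold. All 3 libraries in medium labelled PHD2cko lay above the 3 in WT medium for 5 members (Gbp5, Gbp7, Gbp9, Iigp1 and Ifi47), as for 15.4% of all genes in this direction. The median log2 fold change of the members was 0.90, and that of all genes 0.00.

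A large part of this difference lay in a single library. Against the mean of WT medium, the median ratio of the 10 members was 2.95 in replicate 1 of medium labelled PHD2cko, 1.16 in replicate 2 and 1.59 in replicate 3. Replicates 1 and 3 were above every WT-medium library for all 10 members, and replicate 2 for 5. Leaving out 1 library moved the calls both ways. Without replicate 1 of medium labelled PHD2cko the members called were Gbp9 and Ifi47, as they were without replicate 3 of WT medium. Without replicate 1 or 2 of WT medium 3 members were called, and without any 1 of the BMDM libraries 4 were. Without replicate 2 of medium labelled PHD2cko all members except Gbp2 and Gbp5 were called.

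**Figure D2:**
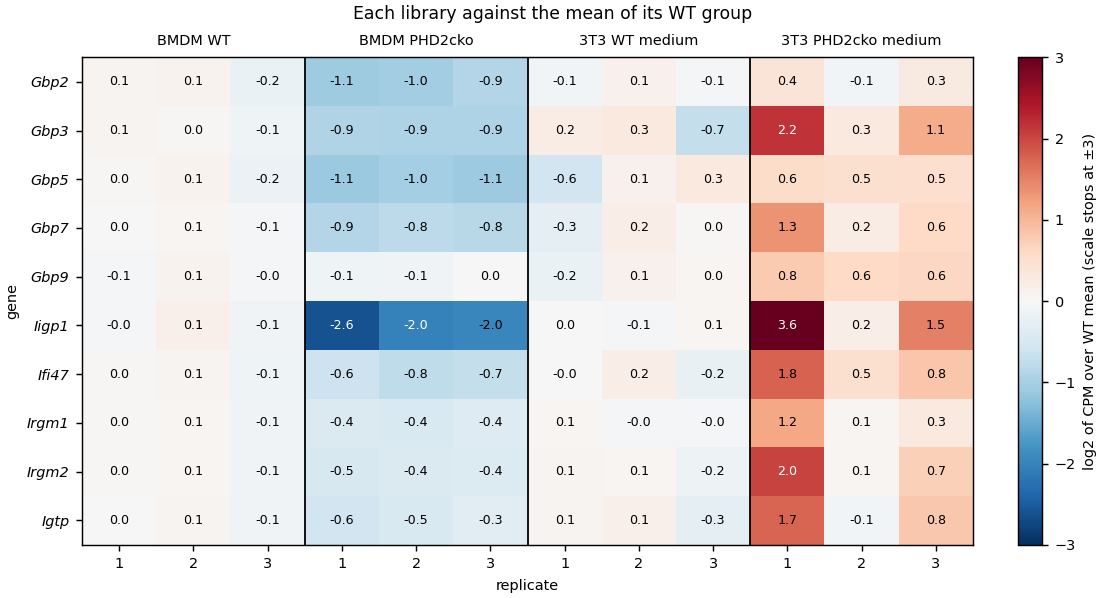
Log2 ratio of the CPM of each GTPase gene (rows) in each of the 12 libraries (columns) to the mean of the WT group of the same cell type. Colour is blue below and red above that mean and stops at 3, and the cells give the value. BMDM libraries labelled PHD2cko are below 0 in 9 rows and near 0 for Gbp9, and replicate 1 in medium labelled PHD2cko is the reddest column, with Iigp1 at 3.6.

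Gbp9 had the firmest difference in the fibroblasts and none past the threshold in the BMDMs. It was at 17.1, 21.5 and 20.4 CPM in WT medium and at 34.0, 29.9 and 30.1 CPM in medium labelled PHD2cko. The 3 libraries were within a narrow range above all WT-medium libraries, and Gbp9 was 1.59-fold higher (log2 fold change 0.67, SE 0.0870, adjusted p = 3.40e-04, edgeR). It was called whichever of the 12 libraries was left out.

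Ifi47 was at 3.21, 3.70 and 2.75 CPM in WT medium and at 11.0, 4.45 and 5.76 CPM in medium labelled PHD2cko. The groups were apart, with replicate 1 far above the rest, and the log2 fold change was 1.12 (SE 0.273, adjusted p = 0.0151, edgeR) or 0.66 (adjusted p = 0.0240, edgeR) without that library. Like Gbp9, it was called with any of the 12 libraries missing, but not in the 6 fibroblast libraries fitted alone (adjusted p = 0.0900, edgeR), where Gbp9 was (0.0105).

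Gbp3 was at 3.05, 3.19 and 1.59 CPM in WT medium and at 11.8, 3.18 and 5.62 CPM in medium labelled PHD2cko. Replicate 2 lay within the WT range, and the log2 fold change of 1.37 (SE 0.381, adjusted p = 0.0292, edgeR) was 0.74 (adjusted p = 0.106) without replicate 1. Gbp7 was at 4.32, 6.06 and 5.34 CPM against 13.3, 6.13 and 7.99 CPM, just without overlap (log2 fold change 0.79, SE 0.223, adjusted p = 0.0305, edgeR), and the value was 0.42 (adjusted p = 0.0891) without replicate 1.

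Iigp1 was close to the limit of detection, with 3, 4 and 3 estimated counts in WT medium and 36, 3 and 9 in medium labelled PHD2cko. Its fitted log2 fold change was 2.41 (SE 0.728, adjusted p = 0.0424, edgeR) and was 1.02, short of the threshold, without replicate 1 (adjusted p = 0.285). Irgm2 was at 6.26, 6.09 and 5.29 CPM in WT medium and at 23.9, 6.13 and 9.64 CPM in medium labelled PHD2cko. Replicate 2 was inside the WT range, and the call (log2 fold change 1.18, SE 0.367, adjusted p = 0.0477, edgeR) was likewise lost without replicate 1 (log2 fold change 0.44, adjusted p = 0.116). Iigp1 and Irgm2 were each called in 2 of the 12 fits that left out 1 library, those without replicate 2 or 3 of medium labelled PHD2cko, and lost their calls without any other library. Gbp3 and Gbp7 each passed in 9 of the 12.

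The remaining 4 members did not pass. Igtp was at 4.83, 5.01 and 3.75 CPM against 15.2, 4.28 and 7.89 CPM (log2 fold change 1.01, SE 0.328, adjusted p = 0.0561, edgeR). Irgm1 was at 21.9, 20.6 and 20.5 CPM against 47.3, 21.8 and 25.8 CPM (log2 fold change 0.59, SE 0.210, adjusted p = 0.0766, edgeR). For both, replicate 1 was the library that stood out, and replicate 2 lay within the range of WT medium. Gbp5 was at 0.865, 1.41 and 1.59 CPM against 1.90, 1.79 and 1.84 CPM, all higher (log2 fold change 0.51, SE 0.195, adjusted p = 0.103, edgeR). Gbp2 was at 20.9, 24.5 and 21.5 CPM against 29.2, 21.1 and 26.9 CPM, with overlapping groups (log2 fold change 0.21, SE 0.121, adjusted p = 0.285, edgeR).

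Macrophage RNA moved with the label of the medium, as given above, and the members are more abundant in BMDMs. If the estimated share carried the levels of the BMDMs of the same label, it would supply between 0.450% (Gbp9, replicate 2) and 11.4% (Gbp5, replicate 1) of a member's counts in medium labelled PHD2cko. With that part subtracted, 5 members were called (Gbp3, Gbp7, Gbp9, Iigp1 and Ifi47, edgeR), and Irgm2 was not (log2 fold change 1.15, adjusted p = 0.0588, in place of 1.18). Replicates 1, 3 and 2 had shares of 2.42%, 2.17% and 0.549% and median member ratios of 2.95, 1.59 and 1.16. A relation between the shares and the ratios was not tested. How macrophage RNA came into these libraries was not tested, nor whether macrophages, if carried over with the medium, change the fibroblasts in another way.

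**Figure D3:**
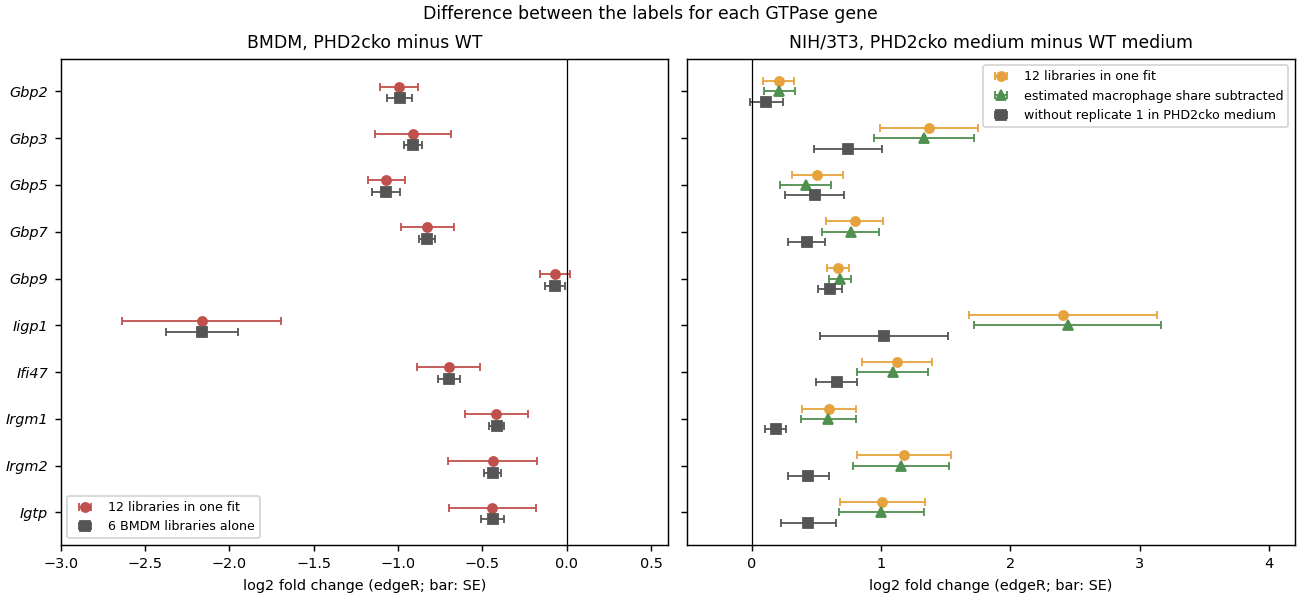
Log2 fold change of each GTPase gene between the labels, with its standard error as bars, for BMDMs (left) and fibroblasts (right). Circles are the fit of all 12 libraries, squares on the left the 6 BMDM libraries alone, and on the right triangles have the estimated macrophage share subtracted and squares leave out replicate 1 in medium labelled PHD2cko. On the left the points coincide while the bars shorten, and on the right leaving out replicate 1 brings Iigp1 from 2.41 to 1.02.

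The difference between the label effects was tested directly, as the effect in fibroblasts minus that in BMDMs. It passed the threshold for all 10 members, in the direction higher in fibroblasts, where 7.71% of all genes did so. It was largest for Iigp1 (4.57 on the log2 scale, SE 0.860, adjusted p = 0.00376, edgeR, or 3.19, adjusted p = 0.00446, without replicate 1 of medium labelled PHD2cko) and smallest for Gbp9 (0.74, SE 0.123, adjusted p = 0.00173). Gbp9 was thus among the members whose label effects differ although only the fibroblast side passed, and Gbp2 and Gbp5 (1.20 and 1.58, adjusted p = 5.07e-04 and 6.42e-04) were so although only the BMDM side did. Irgm1 (1.01, adjusted p = 0.0336), Irgm2 (1.62, adjusted p = 0.0352) and Igtp (1.45, adjusted p = 0.0390) were closest to the threshold, and passed it in 4, 4 and 2 of the 12 fits that left out 1 library.

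The cell types also differed in the levels themselves. All 10 members were higher in WT BMDMs than in fibroblasts in WT medium, as were 40.4% of all genes tested, with log2 differences from 0.67 (Gbp9, SE 0.0882, adjusted p = 8.83e-06, edgeR) to 4.83 (Iigp1, SE 0.606, adjusted p = 5.86e-06). For 8 members the order of the groups was WT BMDMs, BMDMs labelled PHD2cko, fibroblasts in medium labelled PHD2cko and fibroblasts in WT medium, with the BMDM groups apart from each other and from the fibroblasts. Iigp1 kept this order, but its BMDM libraries labelled PHD2cko (0.728 to 1.15 CPM) overlapped with fibroblasts in medium labelled PHD2cko (0.174 to 1.85 CPM). Gbp9 was the exception, with fibroblasts in medium labelled PHD2cko (31.3 ± 2.33 CPM, SD, n = 3) at the level of WT BMDMs (31.5 ± 1.92) and of BMDMs labelled PHD2cko (30.0 ± 1.78).

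Compared between genes per kilobase of merged exons, Gbp2 was the most abundant member in every group, with a mean of 33.9 CPM per kilobase in WT BMDMs and 8.86 in fibroblasts in WT medium. Gbp3 (19.2), Irgm2 (17.1), Irgm1 (15.9) and Ifi47 (15.6 CPM per kilobase) followed in WT BMDMs. In fibroblasts in WT medium the second was Gbp9 (3.80 CPM per kilobase), which was eighth in WT BMDMs (6.09). Iigp1 was last in all groups, with 0.770 CPM per kilobase in WT BMDMs, and Gbp5 was next to last (3.51).

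Of the other GBP and IRG genes, 21 were tested, and 4 fell in the BMDMs labelled PHD2cko, beside 3.35% of all genes. These were Gbp4 (log2 fold change -1.39, adjusted p = 0.00252, edgeR), Gbp8 (-0.82, 0.0249) and Gm4951 (-1.09, 0.0200), together with Gm18853 (-1.21, 0.0199), whose transcripts share 99.9% of their words with other genes. Of the 21 genes, 18 had a negative log2 fold change, and the median was -0.62. Gbp2b had 4, 2 and 2 counts in WT and 0 in each BMDM library labelled PHD2cko, too few to pass (adjusted p = 0.0690). Gbp6 (-0.11) and Gbp10 (-0.43), which share most of their words, and the distant relatives Irgq (-0.04), Atl2 (0.06) and Atl3 (-0.02) were not called. Neither was the relative Atl1, whose libraries labelled PHD2cko all lay above WT (0.42, adjusted p = 0.396, edgeR). Gm5431 (-0.36, 0.106), Gm4841 (-0.34, 0.609) and F830016B08Rik (-0.63, 0.391) did not pass either. Tgtp1 and Tgtp2, near-identical effector IRGs whose promoters hold the composite motif, had log2 fold changes of -1.83 and -0.91 (adjusted p = 0.0781 and 0.338).

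In the fibroblasts 4 of these 21 genes rose, beside 8.93% of all genes, and 17 had a positive log2 fold change. Without replicate 1 of medium labelled PHD2cko, Gbp4 was not called (adjusted p = 0.151, edgeR) and the other 3 were. Gbp4 (log2 fold change 0.58, adjusted p = 0.0488, edgeR) and Gbp11 (0.64, 0.00613) are GBPs of the chromosome 5 cluster, as is Gbp9. Gm12250 (Irgb10), an IRG known for acting with GBPs on bacterial membranes, had 0, 1 and 1 counts in WT medium and 25, 2 and 7 in medium labelled PHD2cko (adjusted p = 0.0139). Gvin1, a very large interferon-inducible GTPase, had 4, 22 and 0 counts against 225, 34 and 118 (adjusted p = 0.00297), but it shares 99.7% of its words with other genes, mainly Gm4070, and is at 4505 counts in a BMDM library, so these counts stand beside the macrophage shares given above.

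**Figure D4:**
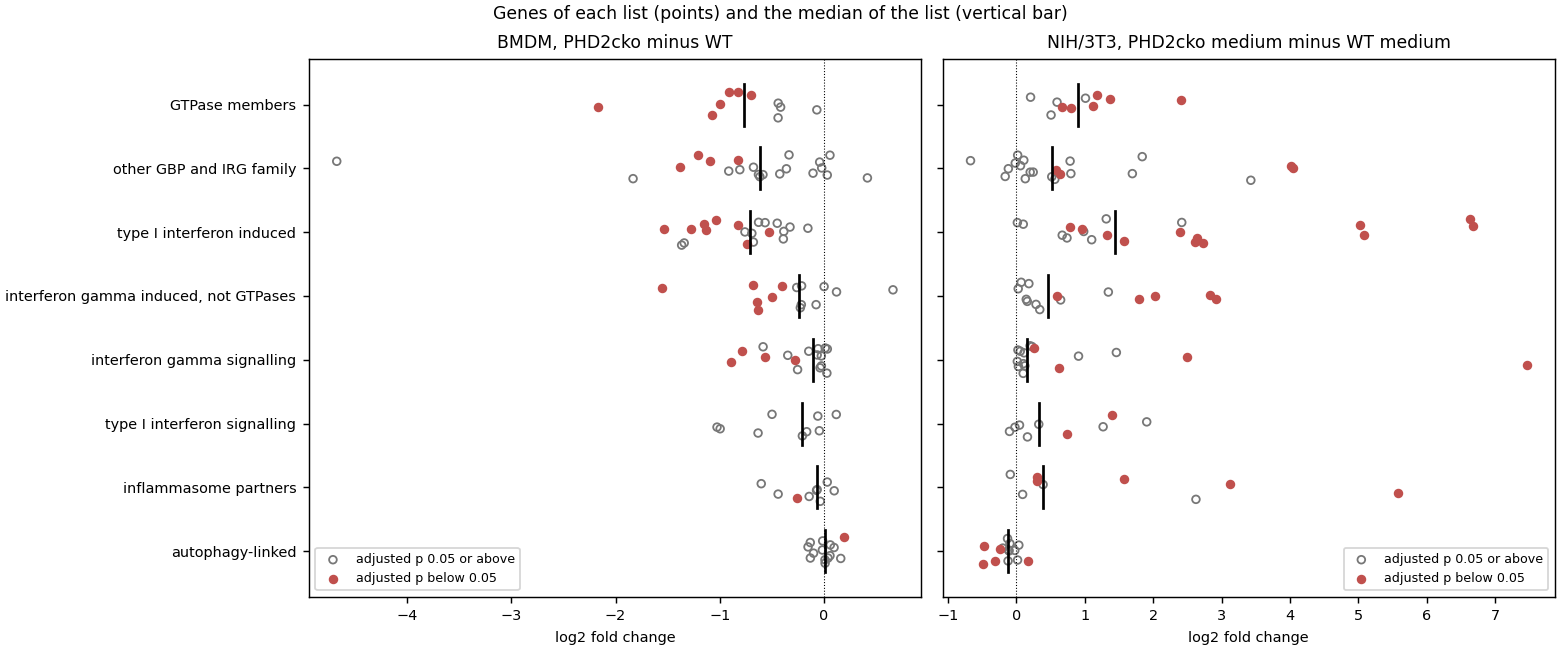
Log2 fold change between the labels for the genes of 8 lists (points, filled where the adjusted p is under 0.05) in BMDMs (left) and fibroblasts (right), with the list median as a vertical bar. The GTPase members have a median of -0.76 on the left and 0.90 on the right, and the autophagy-linked genes have medians of 0.01 and -0.12.

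Upstream of the GTPases lies the interferon gamma pathway. Ifng itself had 0 counts in all 6 BMDM libraries and at most 2 in a fibroblast library. Of 16 genes tested for interferon gamma signalling, 4 fell in BMDMs labelled PHD2cko, beside 3.35% of all genes, and 13 had a negative log2 fold change. The 4 were Ciita, the master regulator of MHC class II (log2 fold change -0.79, adjusted p = 5.02e-05, edgeR), the feedback inhibitors Socs1 (-0.89, 0.0496) and Socs3 (-0.56, 6.70e-04), and the transcription factor Irf2 (-0.28, 0.0144). Socs1 had 26, 20 and 26 counts in WT against 10, 17 and 13, and it was not called with limma-voom. The receptor chains Ifngr1 (-0.03, adjusted p = 0.916) and Ifngr2 (-0.04, 0.789) and the kinases Jak1 (-0.03, 0.847) and Jak2 (-0.15, 0.104) were not called. Irf1, a transcription factor that binds the ISRE, had a log2 fold change of -0.25 (adjusted p = 0.0577, edgeR), and its groups did not overlap. DESeq2 and limma-voom each called Irf1 as lower. Irf8 was at -0.06 (0.896).

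In the fibroblasts 4 of the same 16 genes rose, beside 8.93% of all genes, among them Irf1 (log2 fold change 0.26, adjusted p = 0.0423, edgeR), Irf8 and Ptpn6. Irf8 and Ptpn6 are abundant in the BMDMs (4497 and 5684 counts in WT replicate 1). In the fibroblasts Irf8 had 0, 1 and 0 counts in WT medium and 91, 27 and 104 in medium labelled PHD2cko. The receptor chains Ifngr1 (0.23, adjusted p = 0.0863) and Ifngr2 (0.12, 0.189) were not called. Without replicate 1 of medium labelled PHD2cko, Irf8 and Ptpn6 were still called, and Irf1 was not (0.27, adjusted p = 0.0879, edgeR).

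The counts of the remaining lists stand beside the same shares of all genes, 3.35% lower and 3.38% higher in the BMDMs and 8.93% higher and 6.75% lower in the fibroblasts. Of 20 genes known for induction by type I interferon, 8 fell in BMDMs labelled PHD2cko and all 20 had a negative log2 fold change. Among the 8 were Ifit2 (log2 fold change -1.54, adjusted p = 2.27e-06, edgeR), Rsad2 (-1.28, 0.00592) and Mx1 (-1.04, 0.00111), all of them antiviral. The median of the 20 was -0.71, and DESeq2 called 5 of the 20 as lower and limma-voom 10. In the fibroblasts 12 of the 20 rose, all 20 had a positive log2 fold change, and the median was 1.45. As for the members, replicate 1 of medium labelled PHD2cko was the highest, with a median ratio of the 20 genes to the WT-medium mean of 4.96, against 1.05 in replicate 2 and 2.55 in replicate 3. Ifit1, for example, had 976, 91 and 216 counts there and 75, 112 and 90 in WT medium. Without replicate 1, 7 of the 20 rose and the median was 0.89, and with limma-voom 5 of the 20 did.

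Of 14 tested genes induced by interferon gamma that are not GTPases, 6 fell in the BMDMs: the chemokine Cxcl10 (-1.56, 3.51e-04), the peptide transporter Tap1 (-0.40, 0.00290) and the MHC class II genes Cd74 (-0.68, 0.00206), H2-Aa (-0.50, 0.00164), H2-Ab1 (-0.64, 8.01e-05) and H2-Eb1 (-0.63, 3.80e-05). In the fibroblasts 5 of the 14 rose, and 3 did without replicate 1 of medium labelled PHD2cko. Of 9 genes of type I interferon signalling, edgeR called 0 in the BMDMs, with the lowest adjusted p at 0.0621 (Tyk2). An unadjusted p under 0.05 was found for 5 of the 9 and for 19% of all genes tested. DESeq2 and limma-voom each called 2 of the 9 as lower. In the fibroblasts Isg15 (log2 fold change 1.40, adjusted p = 0.0472, edgeR) and Irf9 (0.74, 0.0492) passed. Isg15 had 534, 91 and 206 counts in medium labelled PHD2cko and 118, 159 and 84 in WT medium, and Irf9 was at 34.7, 13.5 and 20.3 CPM against 13.4 to 13.9 CPM. Their groups overlapped, with replicate 1 the highest, and without it neither was called (Isg15 0.51, adjusted p = 0.201, and Irf9 0.32, adjusted p = 0.147, edgeR). The part of the macrophage shares of 0.549% to 2.42% in these lists was not tested in the fibroblasts.

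GTPases work with inflammasomes and with the autophagy machinery. Of 9 inflammasome genes, 1 fell in the BMDMs, Gsdmd, which forms the pores of pyroptosis (log2 fold change -0.26, adjusted p = 0.00913, edgeR), and Casp1 (0.03) and Casp4 (-0.14) were not. In the fibroblasts 5 of the 9 rose, with Casp4 at 0.31 (0.0160) and Casp8 at 0.30 (9.58e-04), both well expressed in WT medium, while Nlrp3, Casp1 and Pycard had at most 26 counts per library there. A list of 14 autophagy-linked genes held 11 for conjugation enzymes and ATG8 proteins, which direct GBPs and IRGs to vacuoles, and 3 linked to ubiquitin, Sqstm1, Ubqln2 and Traf6. Of the 14, 1 rose in the BMDMs (Gabarapl1, 0.19, adjusted p = 0.0166). In the fibroblasts 4 fell, Atg12 (-0.49, 6.02e-05), Map1lc3a (-0.47, 4.63e-04), Map1lc3b (-0.23, 0.0150) and Gabarap (-0.32, 0.0156), and Ubqln2 rose (0.18, 0.0140). Without replicate 1 of medium labelled PHD2cko, the same 5 inflammasome genes rose, and Map1lc3b was no longer among those that fell.

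Markers of cells that can make interferon gamma were looked at as well. Cd3e of T cells and Ncr1 and Gzma of NK cells had 0 counts in all 12 libraries. The 6 NK markers together reached at most 0.723 CPM in the BMDMs and 0.173 CPM in the fibroblasts, and none passed the filter on low counts. The 7 T cell markers summed to 3.20 to 4.44 CPM in WT BMDMs, 3.72 to 5.09 CPM in those labelled PHD2cko, and 2.08 to 3.34 CPM in the fibroblasts. Of these, 3 were tested in the BMDMs and not called: Cd4 (log2 fold change -0.03, adjusted p = 1, edgeR), Cd3d (0.02, 1) and Cd8a (0.43, 0.573). Cd3g, Trac and Trbc2 had 0 counts in all WT BMDM libraries but not in all of those labelled PHD2cko. They did not pass the filter on low counts, so this difference was not tested. Cd4 made up most of the sum in WT BMDMs, with 38, 53 and 55 counts.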

How the data were processed

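RNA-seq of 12 libraries (polyA RNA, single reads, NextSeq) was analysed from 1 table of genes. The authors deposited estimated counts per gene, made with Kallisto on GRCm38 and not normalised, as whole numbers (the Kallisto version and the strand setting are not given in the sources used here). Totals were between 15516465 and 25199770 counts, and 3 counts correspond to at most 0.193 CPM.

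Genes were kept by filterByExpr over the 4 groups (14285 of 32544), scaled by TMM and fitted together with edgeR 4.0.16 (quasi-likelihood, R 4.3.3), in place of the limma-voom fit of the study, which was run as an alternative. Two-sided p-values were adjusted by Benjamini-Hochberg across the 14285 genes, and an adjusted p under 0.05 counted as a call. Group means are given with the SD of 3 libraries. The members, the gene lists and the rules for naming genes (every tested family gene, up to 8 called genes of another list, and 5 genes most like the members) were chosen with earlier results of these data known, so lists are described by counts and medians only. The macrophage share of a fibroblast library was the summed CPM (without TMM) of 14 markers over that in BMDMs of the same label, and its part of each gene's counts was subtracted in 1 alternative. The others were DESeq2 1.42.0 (size factors, and its Wald test), limma-voom (limma 3.58.1), stricter and looser filters (10 counts in all libraries compared, or 1 count), a fit of only the 6 libraries compared, a replicate block, and each library left out. For the lists, the fits without replicate 1 of medium labelled PHD2cko and with DESeq2 and limma-voom were chosen after seeing the data. The steps were checked on simulated counts. Positions, exon lengths and shared 31-base words were taken from GENCODE M21. Protein sequences were not used here. A gene that the rule names and a detail of the mouse background are not reported here.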

Additional observations from a re-analysis of the deposited data

Results flagged for a closer look

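The label effect in fibroblasts minus that in BMDMs, on the log2 scale, differed from 0 past the threshold of edgeR's interaction test for each of the 10 GTPase genes. The values of the GBPs were 1.20 for Gbp2, 2.28 for Gbp3 (SE 0.442, adjusted p = 0.00451), 1.58 for Gbp5, 1.62 for Gbp7 (SE 0.271, adjusted p = 0.00174) and 0.74 for Gbp9. For the IRGs they were 4.57 for Iigp1, 1.82 for Ifi47 (SE 0.329, adjusted p = 0.00292), 1.01 for Irgm1, 1.62 for Irgm2 and 1.45 for Igtp. These tests share the libraries on both sides and are not independent of each other. Gbp2, Gbp3, Gbp5, Gbp7, Gbp9, Iigp1 and Ifi47 passed in all 12 fits without 1 library, and Irgm1, Irgm2 and Igtp in 4, 4 and 2. Without replicate 1 of medium labelled PHD2cko the values were 3.19 for Iigp1 (adjusted p = 0.00446, edgeR), 1.65 for Gbp3, 0.88 for Irgm2 (adjusted p = 0.0119), 0.60 for Irgm1 (adjusted p = 0.00348) and 0.88 for Igtp (adjusted p = 0.0592, not called).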

How the results depend on the processing

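In BMDMs labelled PHD2cko, between 5 (Wald test of DESeq2, without Gbp3) and 9 members (the 6 libraries alone, where the calls over all genes went from 961 to 2534) were lower past the threshold in the 7 alternatives, and 3 to 8 when 1 of the 12 libraries was left out, with 527 to 1889 calls over all genes. In the fibroblasts, where 6 were called, the 8 alternatives gave 1 to 8: 8 members were higher past the threshold with the Wald test of DESeq2 and 8 with no filter beyond 1 count, 2 with limma-voom (Gbp9 and Ifi47), 1 with the 6 libraries alone (Gbp9, with 912 genes called in place of 2240), 3 with the replicate block (Gbp3, Gbp9 and Ifi47), and 2 to 8 with 1 library left out, with 1260 to 2757 calls over all genes. The replicate block changed no call of a member in the BMDMs, and in the difference of the label effects it lost that of Igtp. The replicate numbers did not pair the libraries: deviations from the group means correlated across genes by -0.00424 on average between libraries with the same number and by 0.00201 otherwise. The difference of the label effects passed for 8 to 10 members in its 7 alternatives. No fold change of a member changed sign in any of these settings. Of 766 values of single genes in the comparisons under all settings, 668 kept their direction and side of the threshold, 86 lost and 12 gained a call. Leaving out WT-medium replicate 1 nearly doubled the calls over all genes in the BMDMs, and the members called there did not change. Iigp1 had too few counts in the fibroblasts for the stricter filter and for the 6 libraries alone, so it was not tested there. The cause of these shifts was not tested.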
